A study of Homo sapiens with 9 samples.

Results

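A human genome assembly holds, beside chromosomes 1 to 22, X, Y and the mitochondrial genome (MT), many short sequences that could not be placed on a chromosome or in an order along one. Peaks on these sequences, which include copies of the ribosomal DNA (rDNA), are described here. Members were chosen by name alone: every deposited peak whose sequence was not 1 to 22, X, Y or MT was taken, and peaks that overlapped or touched were merged per sequence. This gave 353 merged regions from the NKX2-1 antibody libraries and 11 peaks from the H3K27ac library, or 364 members of 11751 such regions in all. The NKX2-1 antibody members lay on 51 sequences, 7 with names that begin with GL and 44 with names that begin with KI.

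The study used RPMI-8402, a human T-cell acute lymphoblastic leukaemia line, and asked where NKX2-1, a homeodomain transcription factor also called TTF1, binds. ChIP-seq with the antibody ab76013 against this factor was run on 4 knockout (KO) clones, C12, C15, S04 and S36, and on 4 wild-type (WT) clones, WT10, WT13, WT28 and WT30. A single further library, without a replicate, was made for H3K27ac, the acetylated form of histone H3 at lysine 27 that marks active regulatory elements. The genotype field of C12, C15, S04 and S36 holds only the gene's name, NKX2-1, as does that of the H3K27ac library, for which no clone is given. The 4 clones are called KO on the word of the series design text. Every clone gave 1 library, so p-values here measure the spread between clones, and technical spread between libraries cannot be told apart from it. No read numbers were available, so depth is unknown and a site without a peak is not shown to be unbound.

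Ribosomal DNA lies in tandem arrays on the short arms of the acrocentric chromosomes. Each repeat holds a 45S precursor transcript, which is processed to the 18S, 5.8S and 28S ribosomal RNAs, followed by a long intergenic spacer. Satellites are tandem repeats of centromeres and the chromatin beside them. An assembly holds far fewer copies of such repeats than a cell does, so reads from many copies can pile up on the copies it has. Whether GL000225.1, GL000216.2 or other members are satellite sequence was not checked, because the files and gene tables used here annotate no repeats.

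Between 20.5 and 26.1% of the NKX2-1 antibody peaks of KO clones, and between 21.5 and 28.3% of those of WT clones, lay on these sequences. They numbered 270, 289, 273 and 244 in C12, C15, S04 and S36, against 316, 293, 305 and 277 in WT10, WT13, WT28 and WT30. The shares of all peaks of the library were 24.9%, 26.1%, 24.4% and 20.5% in the KO clones, against 21.5%, 28.3%, 25.7% and 26.3% in the WT clones. S36 was the lowest library by number and by share, and the groups overlapped in both. The number averaged 269 ± 18.6 in KO and 298 ± 16.7 in WT clones (SD, n = 4 each; difference -28.8 peaks, exact two-sided permutation p = 0.0571, adjusted p = 0.133 over 7 tests per library). Without GL000225.1, the sequence with the most peaks, the difference was -8.25 peaks (exact permutation p = 0.457, adjusted p = 0.767). The share averaged 24.0% ± 2.40 in KO and 25.4% ± 2.86 in WT clones (SD, n = 4 each; exact permutation p = 0.400, adjusted p = 0.50). The difference in share, -1.46 points with all libraries, was -0.31 without S36 and -0.51 without WT13.

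Peaks covered 170.2, 166.5, 184.7 and 108.1 kb of these sequences in C12, C15, S04 and S36, against 205.1, 177.1, 172.1 and 152.1 kb in WT10, WT13, WT28 and WT30. The KO mean was 157 ± 33.8 kb and the WT mean 177 ± 21.9 kb (SD, n = 4 each; exact permutation p = 0.429, adjusted p = 0.50). The difference of -19.3 kb was -2.82 kb without S36 and -9.75 kb without WT10. A peak was present on 38, 44, 41 and 37 of the sequences in the KO clones, against 47, 44, 42 and 45 in the WT clones (difference of the means -4.50, exact permutation p = 0.0857, adjusted p = 0.150). None of these differences passed an adjusted p of 0.05, and with 4 libraries against 4 the smallest p that the exact test can give is 0.0286. The total number of peaks per library also varied, from 1084 to 1188 in KO clones and from 1035 to 1469 in WT clones.

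Column 7 of the peak lists is the authors' fold enrichment, the summit's signal divided by the caller's background. It was tested only within a library, because values of different libraries rest on different backgrounds and stand side by side as descriptions. Within a library the background can also differ between peaks, so a higher fold need not mean a higher signal. The median fold enrichment on these sequences was 7.35, 6.96, 6.87 and 6.11 in C12, C15, S04 and S36, against 6.71, 6.53, 6.53 and 6.34 in WT10, WT13, WT28 and WT30. On chromosomes 1 to 22, X and Y of the same libraries it was 6.13, 6.45, 6.11 and 6.81 in the KO clones, against 5.90, 5.96, 6.22 and 6.07 in the WT clones. The median was thus higher on the other sequences than on the chromosomes in 7 of 8 libraries, S36 being the exception. The mean log2 ratio was 0.10 ± 0.12 (SD, n = 8; exact sign-flip permutation p = 0.0547, adjusted p = 0.133). This ratio turned round without GL000225.1, to -0.06 on the log2 scale (exact sign-flip permutation p = 0.445, adjusted p = 0.767).

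The median width of peaks was greater on these sequences than on the chromosomes in 8 of 8 libraries, by a mean log2 ratio of 0.15 ± 0.08 or 1.11-fold. The exact sign-flip permutation p was 0.00781, the smallest that 8 libraries can give, and 0.0547 after adjustment, just over the threshold. Median widths were 396.5, 369, 418 and 349.5 bp in C12, C15, S04 and S36, against 412, 380, 381 and 380 bp in WT10, WT13, WT28 and WT30. The groups overlapped, with means of 383 ± 30.1 bp in KO and 388 ± 15.8 bp in WT clones (SD, n = 4 each; exact permutation p = 0.800, adjusted p = 0.800). The widest single peak per library ranged from 2670 bp in S36 to 13359 bp among KO clones and from 3800 to 12697 bp among WT clones.

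**Figure D1:**
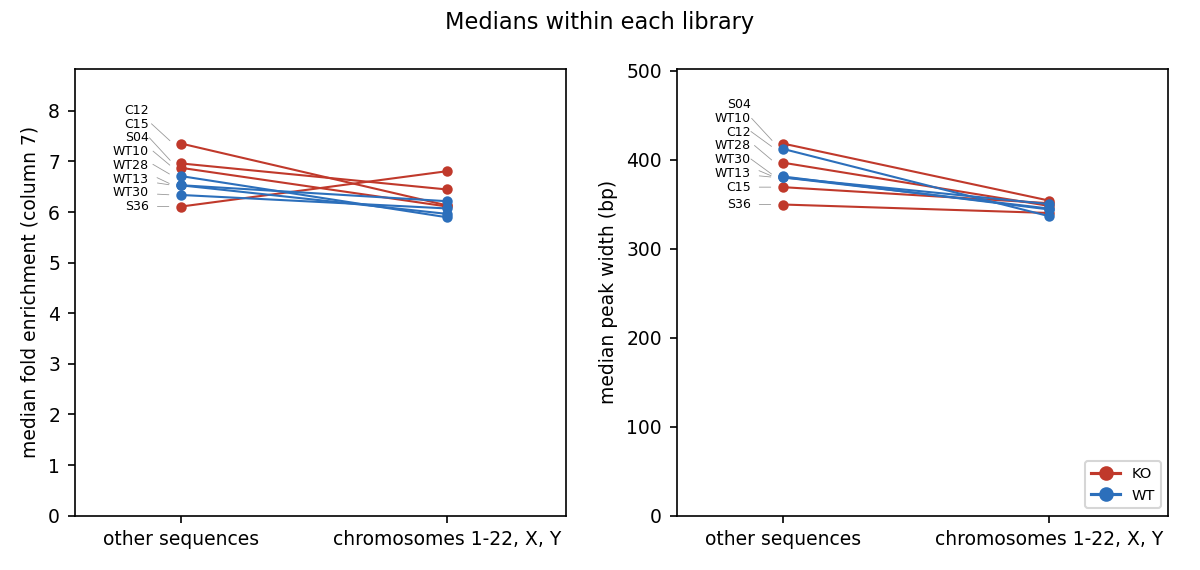
Median fold enrichment (left) and median peak width in bp (right) of the peaks on the other sequences and on chromosomes 1 to 22, X and Y. Each line joins the medians of 1 library, red for KO and blue for WT clones; fold enrichment was higher on the other sequences in 7 of 8 libraries and width in 8 of 8.

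Some of the most enriched peaks of each list were among these members. Of the 50 peaks with the highest fold enrichment in a library, 13, 9, 15 and 10 lay on these sequences in C12, C15, S04 and S36, against 20, 17, 18 and 15 in WT10, WT13, WT28 and WT30. S04 and WT30 both had 15, and the other KO clones had fewer than any WT clone. These were 26%, 18%, 30% and 20% of the 50 in the KO clones, beside 24.9%, 26.1%, 24.4% and 20.5% of all their peaks. In the WT clones they were 40%, 34%, 36% and 30%, beside 21.5%, 28.3%, 25.7% and 26.3%. The share among the 50 was thus above that of all peaks in each WT clone and in C12 and S04, but not in C15 and S36. The highest fold enrichment on these sequences was 38.1, 38.3, 34.4 and 35.5 in the KO clones, against 39.6, 37.6, 40.3 and 42.4 in the WT clones.

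The same places were called again and again across clones. Of the 353 merged regions, 126 (35.7%) had a peak in all 8 libraries, beside 22.1% of the 1999 merged regions on all sequences of the files. On chromosomes 1 to 22, X and Y, 315 of 1643 regions (19.2%) had a peak in all 8 libraries. At the other end, 58 regions (16.4%) on the other sequences were called in 1 library, against 641 (39.0%) on the chromosomes. Regions on 1 sequence are not independent of each other, so these shares are descriptions and were not tested.

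**Figure D2:**
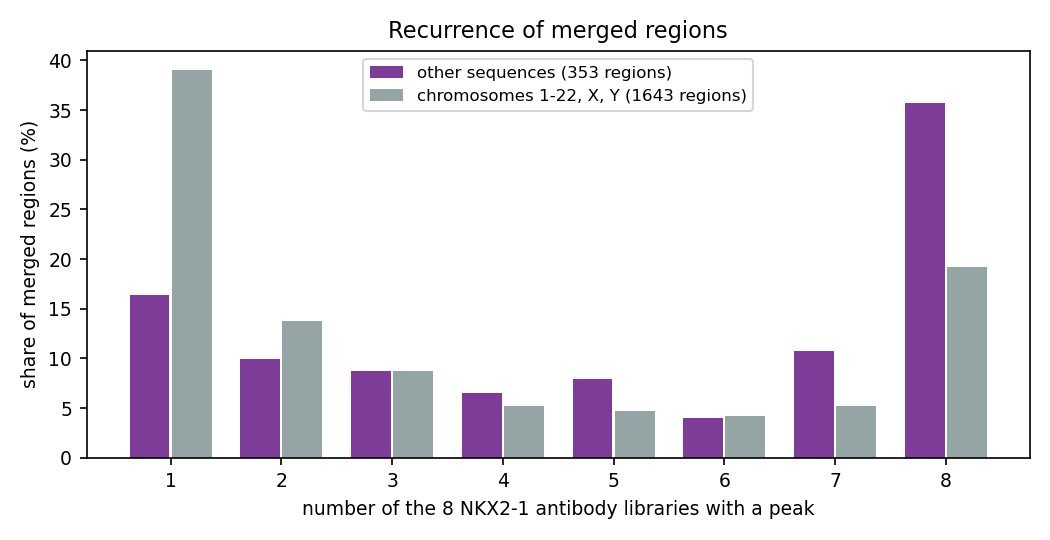
Share of merged regions (%) by the number of the 8 NKX2-1 antibody libraries with a peak there, for the 353 regions on the other sequences (purple) and the 1643 regions on chromosomes 1 to 22, X and Y (grey). The purple bars are highest at 8 libraries (35.7%) and the grey bars at 1 library (39.0%).

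The regions called in all 8 libraries had a median width of 817.5 bp, lay on 30 sequences and made up 163 of the 269 kb covered by any library. Regions called in 1 library had a median width of 218.5 bp. Widths over all 353 regions ran from 200 bp to 18616 bp for a region at bases 119686 to 138301 of GL000220.1, which lies in the rDNA spacer and held a peak in all 8 libraries. When a region counted as called only where a library covered at least 50% of it, 81 regions were called in all 8. The share of all merged regions was not computed under this setting, so whether the higher recurrence holds there was not tested.

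The overlap of covered bases between libraries, as a Jaccard index (bases covered in both over bases covered in either), ran from 0.509 to 0.727 for pairs of KO clones, from 0.464 to 0.709 for a KO with a WT clone, and from 0.628 to 0.693 for pairs of WT clones. The low end of the first ranges came from S36: without it, KO pairs ran from 0.697 to 0.727 and pairs of a KO with a WT clone from 0.594 to 0.709. These are descriptions of pairs that share libraries.

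The 4 sequences GL000225.1, KI270733.1, GL000220.1 and GL000216.2 held 1449 of the 2267 peaks (63.9%) and 67.9% of the covered bases. GL000225.1 alone held 594 peaks (26.2%), KI270733.1 324 (14.3%), GL000220.1 278 (12.3%) and GL000216.2 253 (11.2%). At the other extreme, 23 of the 51 sequences had their last called base before base 3000. A peak was present in all 8 libraries on 31 sequences.

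Different arrangements of peaks were seen on these 4 sequences. On GL000225.1 and GL000216.2 there were many short peaks of higher fold enrichment. Their merged regions covered 31.3% and 13.0% of the stretch between the first and the last called base. On GL000220.1 and KI270733.1 broader peaks of lower fold enrichment lay in 1 stretch at the rDNA genes. Regions merged over the 8 libraries covered 79.3% and 81.7% of it. Single libraries covered less, down to 17394 and 14976 bp in S36.

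GL000225.1 was covered less in every KO clone than in any WT clone. Its peaks covered 26926, 27905, 30583 and 20594 bp in C12, C15, S04 and S36, against 41032, 37467, 35396 and 31700 bp in WT10, WT13, WT28 and WT30. S04, the highest KO clone, stayed below WT30, the lowest WT clone, so the groups did not overlap. The means were 26502 ± 4231 bp in KO and 36399 ± 3903 bp in WT clones (SD, n = 4 each), a KO to WT ratio of 0.728, with an exact permutation p of 0.0286, the smallest possible, and an adjusted p of 0.217 over the 76 sequences tested. The number of peaks followed, at 63, 71, 68 and 54 in the KO clones against 89, 88, 82 and 79 in the WT clones.

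GL000216.2 showed the same order. Its peaks covered 10978, 11202, 12135 and 10289 bp in C12, C15, S04 and S36, against 15748, 14415, 14147 and 13620 bp in WT10, WT13, WT28 and WT30. The groups did not overlap, and the means were 11151 ± 762 bp in KO and 14483 ± 906 bp in WT clones (SD, n = 4 each; ratio 0.770, exact permutation p = 0.0286, adjusted p = 0.217). Peak numbers did overlap, at 28, 32, 29 and 29 in the KO clones against 36, 32, 36 and 31 in the WT clones.

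Such an order was one of 9 among the 51 sequences. Covered length was higher in every WT than in any KO clone on 5 sequences (9.80%), beside 7.89% of all 76 sequences tested, chromosomes included. It was higher in every KO than in any WT clone on 4 sequences (7.84%), beside 5.26% of all 76. No sequence passed an adjusted p of 0.05 (0% of 76), and each of the 9 had the same exact permutation p of 0.0286 and adjusted p of 0.217. The members supply 9 of the 10 such sequences among the 76; of the other 25 sequences, chromosomes 1 to 22, X, Y and MT, 1 (4.00%) was higher in every WT clone and none in every KO clone. That permutation p is the smallest possible, and it passes adjustment over 76 sequences only if most of them share it. No conclusion is therefore drawn from the adjusted test, and the order on any 1 sequence is a description.

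**Figure D3:**
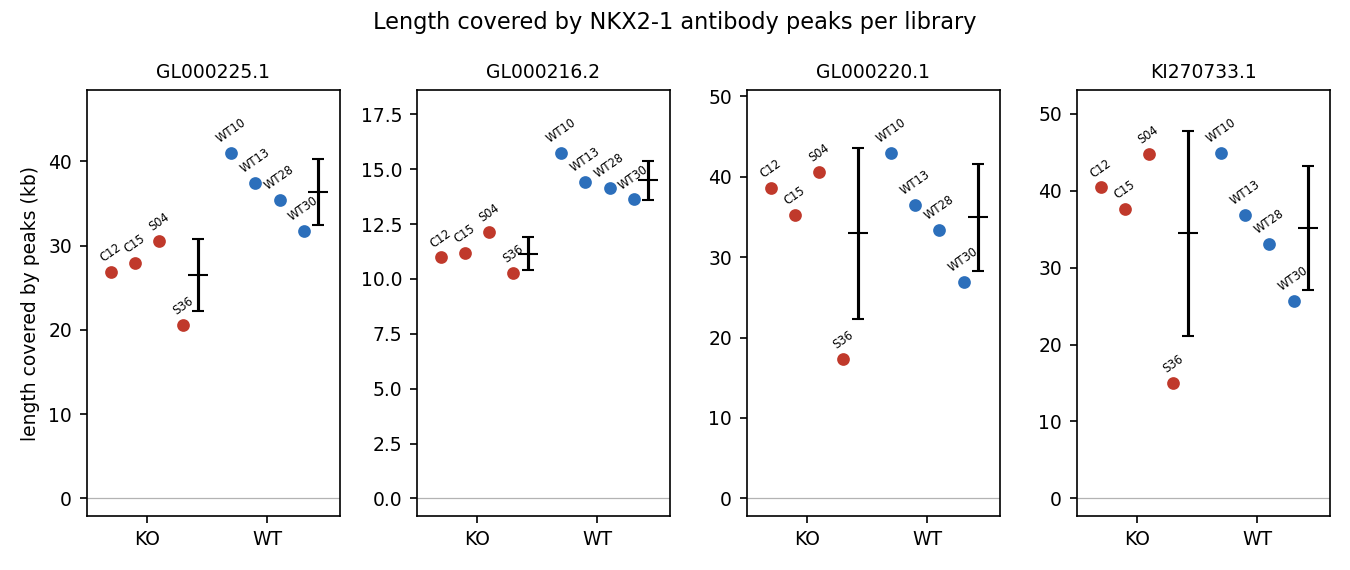
Length covered by NKX2-1 antibody peaks (kb) on GL000225.1, GL000216.2, GL000220.1 and KI270733.1, with each clone as a labelled point, KO in red and WT in blue, and the mean and SD of 4 clones as black bars. The groups do not overlap on GL000225.1 and GL000216.2, and overlap on GL000220.1 and KI270733.1, where S36 is the lowest point.

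The order on GL000225.1 held at equal list length and not at a stricter threshold. With the 1000 peaks of highest -log10 q in each library, an alternative chosen after the data were seen, the covered length was 19933 to 29738 bp in KO and 31500 to 36535 bp in WT clones. With only peaks of a -log10 q of 10 or more it was 16017 to 24744 bp in KO and 22486 to 31471 bp in WT clones, so that the groups overlapped. On GL000216.2 the stricter threshold left 6780 to 10018 bp in KO and 10037 to 13826 bp in WT clones, which did not overlap.

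A property of the fold enrichment values moved with these sequences. In 6 of the 8 libraries values of column 7 lay on whole multiples of a fixed step, 0.409, 0.387 and 0.382 in C12, C15 and S04 against 0.336, 0.366 and 0.334 in WT10, WT28 and WT30. MACS2 computes the value as the pileup plus a pseudocount over the background plus the same pseudocount, so where the background is 1 fixed value the step is the reciprocal of background plus pseudocount. This gave a background of 1.447, 1.59 and 1.62 in the KO clones against 1.98, 1.74 and 1.998 in the WT clones. Values in S36 and WT13 were offset from whole multiples, and no background was read for them. Within 0.001 of the steps, offset included, lay 72.7 to 87.3% of the peaks on GL000225.1 and 65.5 to 86.1% of those on GL000216.2 in the 8 libraries, but none on GL000220.1 and at most 2.56% on KI270733.1. On chromosomes 1 to 22, X and Y it was 29.9 to 36.3%. The part of this background in the covered length was not tested.

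The 108 merged regions of GL000225.1 lay between bases 26 and 197191 and covered 31.3% of that stretch. Of them, 33 were called in all 8 libraries and 27 in 1 library, where 22.1% of all 1999 merged regions were called in all 8. Median fold enrichment per library was 8.12 to 9.09 in KO and 7.34 to 8.23 in WT clones. The region at bases 85481 to 85933 was the most enriched of those called in all 8, with a highest fold of 26.2, 25.9, 24.4 and 24.7 in C12, C15, S04 and S36, against 26.8, 22.9, 29.98 and 26.02 in WT10, WT13, WT28 and WT30. The folds of KO clones lay within the range of those of WT clones. The next regions by mean fold enrichment, at bases 67098 to 68570 and 74358 to 75020, had folds of 14.99 to 22.4 and 15.05 to 19.9 over the 8 libraries.

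On GL000225.1, 38 of 108 regions (35.2%) were called in 1 genotype alone. The part called in WT alone was near that of all regions, and the part called in KO alone was below it. It had 34 regions (31.5% of its 108) with a peak in WT and in no KO clone, beside 28.1% of all 1999 merged regions, and 24 of these were called in 1 WT library alone. The reverse, a peak in KO and in no WT clone, was met by 4 regions (3.70%), beside 22% of all, and 3 of them were called in 1 KO library alone.

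GL000216.2 had 39 merged regions between bases 57 and 174914, and they covered 13.0% of that stretch. Of them 18 were called in all 8 libraries, as were 22.1% of all 1999 merged regions. The region at bases 167367 to 169025 reached 34.7, 38.3, 31.7 and 35.5 in C12, C15, S04 and S36, against 33.9, 31.6, 28.9 and 33.03 in WT10, WT13, WT28 and WT30. The region at bases 173492 to 174157 reached 17.98, 18.2, 22.5 and 22.9 in the KO clones, against 27.2, 23.4, 35.1 and 29.7 in the WT clones. Every KO value of the second region lay below every WT value and those of the first overlapped, but folds of different lists have different backgrounds and no test was made. A further region in all 8 libraries, at bases 159401 to 159916, had folds of 13.3 to 17.4.

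GL000220.1 and KI270733.1 carry rDNA. The RefSeq gene table (GRCh38.p14, the same primary assembly as hg38) lists the 45S genes RNA45SN5 at 105424 to 118780 and RNA45SN4 at 122273 to 135645 without naming the scaffold, and their places on GL000220.1 and KI270733.1 are background knowledge. The peak profiles of the 2 sequences were also compared, with the genes in these places. Over the 45S transcript one profile matched the other best after a shift of 16858 bp, where the 2 gene starts differ by 16849 bp. The overlap was 0.732 (the sum over bases of the lower number of libraries, divided by that of the higher). Around a second, partial copy of the rRNA genes the best shift was 17942 bp, where the second 18S copies differ in start by 17962 bp, with an overlap of 0.793. Over the whole sequences the best shift was 17960 bp, with a lower overlap of 0.611. The match shows a pattern shared by the 2 sequences and does not by itself place the genes. Reads that fit both copies equally cannot be told apart between them, so these sequences are no independent pair of measurements.

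Coverage on both rDNA sequences varied widely among clones and did not separate the genotypes. On GL000220.1 peaks covered 38642, 35215, 40583 and 17394 bp in C12, C15, S04 and S36, against 42986, 36534, 33353 and 26936 bp in WT10, WT13, WT28 and WT30. S36 had the lowest value, and the other KO clones lay within the WT range. Means were 32959 ± 10611 bp in KO and 34952 ± 6680 bp in WT clones (SD, n = 4 each; exact permutation p = 0.743, adjusted p = 0.896). Without S36 the difference of KO from WT turned round, from -1994 bp with all libraries to 3194 bp.

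On KI270733.1 the covered length was 40423, 37652, 44754 and 14976 bp in C12, C15, S04 and S36, against 44935, 36838, 33106 and 25670 bp in WT10, WT13, WT28 and WT30. The order of the clones resembled that on GL000220.1, with S36 lowest and WT30 next. Means were 34451 ± 13308 bp in KO and 35137 ± 8013 bp in WT clones (SD, n = 4 each; exact permutation p = 0.971, adjusted p = 1.00), and without S36 the difference turned from -686 to 5806 bp.

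Peaks on the rDNA sequences were broader and had lower fold enrichment than those on GL000225.1, by median width and median fold enrichment. Within 0.001 of the fixed steps lay 72.7 to 87.3% of the peaks on GL000225.1, none on GL000220.1 and at most 2.56% on KI270733.1. The folds may thus rest on different backgrounds even within a library, and a weaker signal on the rDNA sequences was not tested. Median fold enrichment was 3.68 to 4.97 in KO and 3.52 to 4.49 in WT clones on GL000220.1, and 3.83 to 5.09 in KO and 3.78 to 4.17 in WT clones on KI270733.1, against 8.12 to 9.09 in KO and 7.34 to 8.23 in WT clones on GL000225.1. Median widths were 391.5 to 630.5 bp in KO and 480.5 to 729.5 bp in WT clones on GL000220.1. On KI270733.1 they were 319 to 649 bp in KO and 491 to 751 bp in WT clones. Those on GL000225.1 were 310 to 384 bp in KO and 334.5 to 363 bp in WT clones. In S36 the median was 319 bp on KI270733.1, little above its 310 bp on GL000225.1. The 26 merged regions of GL000220.1 lay between bases 101549 and 161789 and covered 79.3% of that stretch. The 28 regions of KI270733.1 lay between 118287 and 179772 and covered 81.7%.

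**Figure D4:**
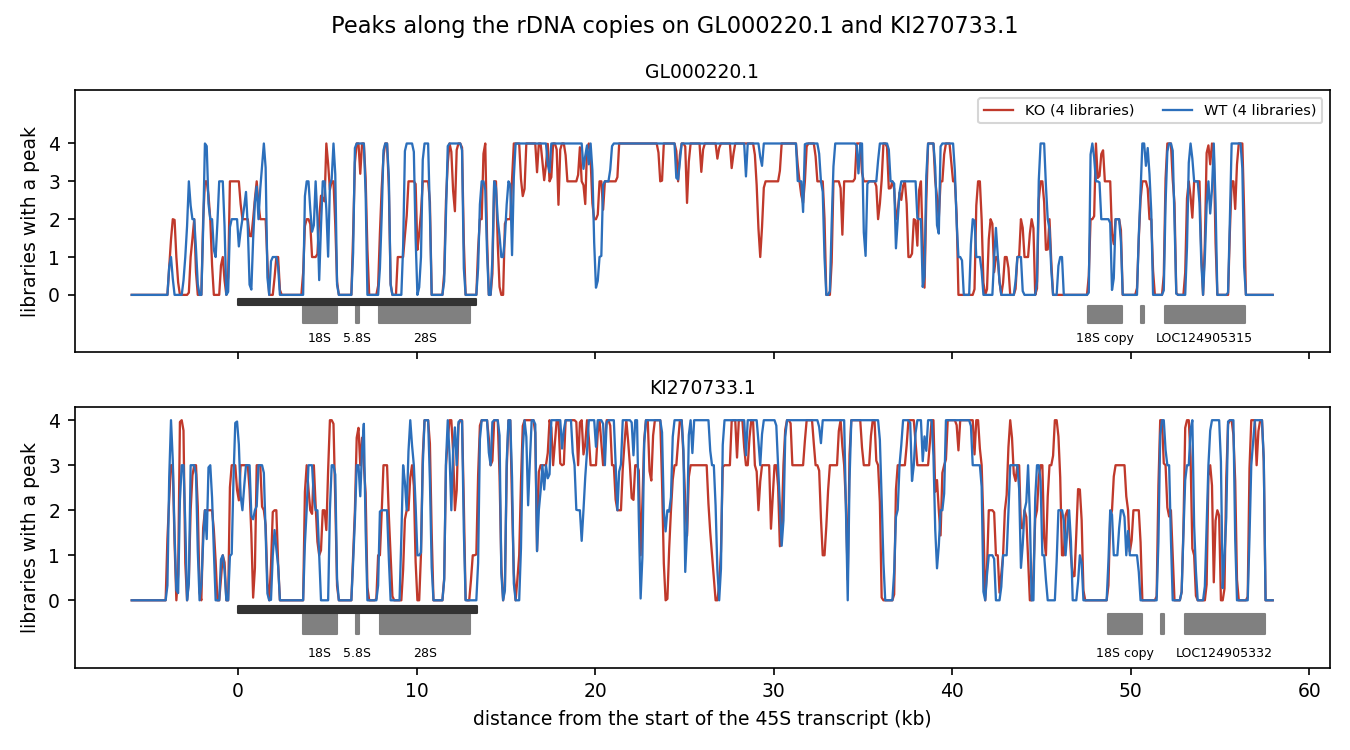
Mean number of libraries with a peak (y axis, 0 to 4) against distance from the start of the 45S transcript in kb (x axis) on GL000220.1 (top) and KI270733.1 (bottom), KO in red and WT in blue. The dark bar marks the 45S transcript and grey boxes the rRNA genes, the second 18S and 5.8S copies and the pseudogene after them. On GL000220.1 both lines reach 4 in the 45S transcript, the spacer and the second copy, with the longest runs at 4 in the spacer.

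Within the repeat unit, peaks covered a larger share of the spacer than of the 45S transcript taken whole. On GL000220.1 peaks covered 78.6%, 71.5%, 76.8% and 38.1% of the spacer from the 45S end to the second 18S copy in C12, C15, S04 and S36, against 82.8%, 71.7%, 70.8% and 57.6% in WT10, WT13, WT28 and WT30. They covered 43.6%, 40.0%, 55.5% and 14.3% of the 45S transcript in the KO clones, against 51.8%, 42.1%, 33.7% and 32.5% in the WT clones. The spacer was covered to a higher share than the transcript in 8 of 8 libraries, a pattern seen in both genotypes. It did not hold for each part of the transcript, since the 5.8S gene was covered whole in all 8 libraries. The transcript outside the 18S, 5.8S and 28S genes was covered to means of 24.3% in KO and 24.4% in WT clones. Before the 45S start, peaks covered at most 2.21% of GL000220.1 in any library.

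On KI270733.1 the spacer was covered to 81.3%, 72.5%, 84.1% and 31.9% in the KO clones, against 83.5%, 73.4%, 70.01% and 56.0% in the WT clones. The 45S transcript was covered to 42.7%, 43.3%, 53.9% and 12.2% in the KO clones, against 53.8%, 36.7%, 29.99% and 21.3% in the WT clones. The order of spacer over transcript was the same in 8 of 8 libraries as on GL000220.1.

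Inside the 45S transcript of GL000220.1, the gene of 5.8S rRNA, the short RNA that pairs with 28S in the large ribosomal subunit, was covered whole in all 8 libraries. It lies in the region at bases 111864 to 112709, where the highest fold was 7.72, 8.11, 10.6 and 6.04 in C12, C15, S04 and S36, against 7.57, 6.61, 5.67 and 4.32 in WT10, WT13, WT28 and WT30. The groups overlapped there. A region at bases 113300 to 113953 spans the start of the 28S gene and had folds of 4.04 to 9.11. One at 157272 to 157928, over the start of the pseudogene LOC124905315 after the second 18S and 5.8S copies, had folds of 3.90 to 10.1. The 18S gene, which encodes the RNA of the small subunit, was covered to 62.3%, 45.2%, 94.5% and 13.1% in the KO clones, against 77.4%, 66.7%, 57.5% and 35.6% in the WT clones.

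On KI270733.1, the 5.8S gene was covered whole in C12, C15 and S04 and to 79.5% in S36, against whole in WT10, WT13 and WT30 and 0% in WT28. The most enriched region called in all 8 libraries there, at bases 135328 to 137049 across the end of the 45S transcript, had folds of 5.24 to 10.2. Those at 178865 to 179772 and 177476 to 178218 lay within LOC124905332, a pseudogene that follows the second 18S and 5.8S copies. The RefSeq table also lists 45S genes on chromosome 21, and these were covered to medians over the 8 libraries of 17.3% (RNA45SN1), 21.1% (RNA45SN2) and 25.3% (RNA45SN3), beside 41.1% for RNA45SN5 and 39.7% for RNA45SN4.

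The other sequences with the most covered bases differed in fold enrichment, which may rest on different backgrounds. KI270729.1 had short, strongly enriched peaks that covered 8654, 8868, 9330 and 6775 bp in C12, C15, S04 and S36, against 9822, 9563, 8790 and 9226 bp in WT10, WT13, WT28 and WT30 (exact permutation p = 0.143, adjusted p = 0.434). Its median fold enrichment was 8.78 to 10.9 in KO and 8.59 to 9.51 in WT clones. KI270709.1 and KI270438.1 had median folds of only 2.32 to 2.77 and 1.71 to 2.42 in KO clones, against 2.31 to 2.43 and 1.55 to 2.09 in WT clones. On KI270438.1 peaks covered 5043, 4528, 4785 and 3438 bp in the KO clones, against 3255, 1070, 4379 and 2858 bp in the WT clones, and the groups overlapped through S36 and WT28 (exact permutation p = 0.0571, adjusted p = 0.271). KI270743.1 was covered over 502 to 1628 bp in KO and 1091 to 2668 bp in WT clones, and KI270709.1 over 3649 to 5563 bp in KO and 3546 to 5985 bp in WT clones, with overlap on both.

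KI270336.1, a short sequence, had no peak in any KO clone, while peaks covered 918, 988, 906 and 988 bp in WT10, WT13, WT28 and WT30, within bases 1 to 988. The highest fold enrichment in these WT clones was 39.6, 33.03, 35.5 and 42.4, and those of WT10 and WT30 were the highest of any peak on these sequences in their library. The -log10 q of the strongest peak was 154.1, 122.2, 123.2 and 169.1, where the lowest in the deposited lists was 2.01. No value is listed for KO clones, so no fold between genotypes can be given.

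KI270465.1 and KI270724.1 had weaker peaks with the same order. On KI270465.1 peaks covered 205 and 317 bp in C12 and C15 and none in S04 and S36, against 627, 366, 437 and 561 bp in WT10, WT13, WT28 and WT30. On KI270724.1 there was no peak in C12 and 219, 237 and 232 bp in C15, S04 and S36, against 548, 485, 396 and 376 bp in the WT clones. The groups did not overlap on either.

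The opposite order was found on KI270418.1, with 1370, 1288, 1428 and 1391 bp in C12, C15, S04 and S36, against 1029, 1053, 988 and 1059 bp in WT10, WT13, WT28 and WT30. The additional bases lay in a region at bases 1622 to 2018 that was called in all 4 KO clones, with folds of 13.3, 7.11, 4.21 and 4.71, and in no WT clone. It lay 111 bp from the nearest WT peak. The groups overlapped on KI270418.1 with peaks of a -log10 q of 10 or more, and also with lists of 1000 peaks: both left 1032 to 1370 bp in KO and 988 to 1059 bp in WT clones, and the difference of 337 bp became 151 bp (exact permutation p = 0.229).

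**Figure D5:**
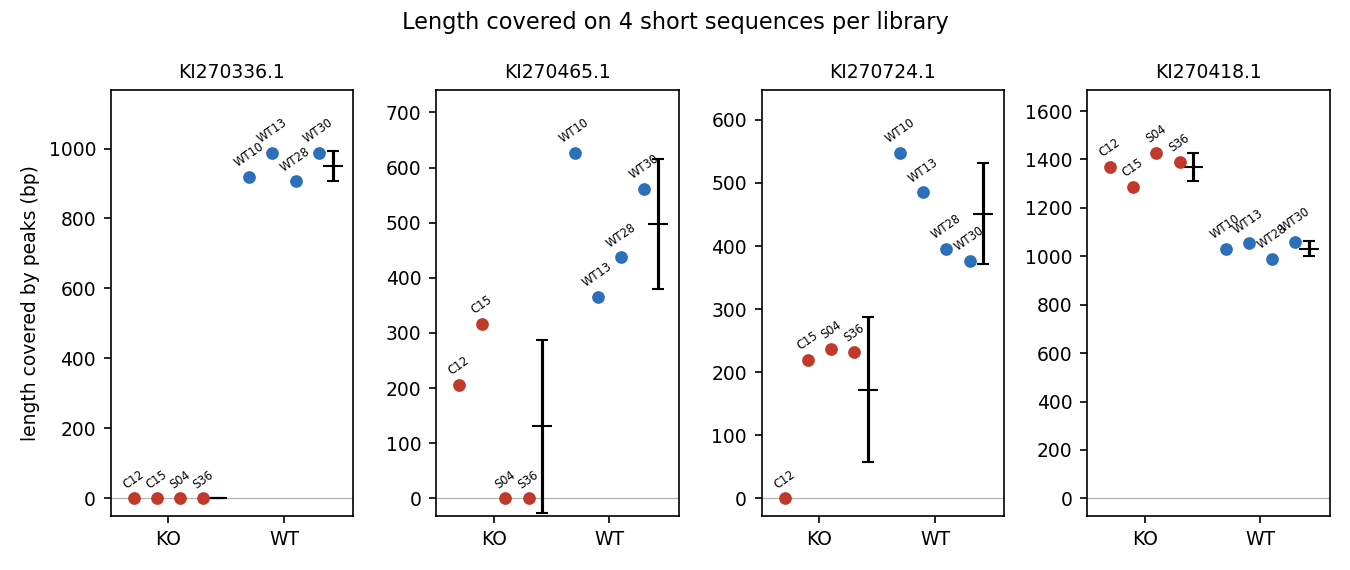
Length covered by peaks (bp) on KI270336.1, KI270465.1, KI270724.1 and KI270418.1, with each clone as a labelled point, KO in red and WT in blue, and the mean and SD of 4 clones as black bars (the SD bar of KO clones on KI270465.1 passes below 0, which covered length cannot). KO points lie below all WT points on the first 3 sequences and above them on KI270418.1.

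On 3 further short sequences the KO clones had more covered bases through the end point of a single peak. On KI270333.1 the only peak ended at base 2694 in C12, C15 and S04 and at 2670 in S36, against 2648 in each of the 4 WT clones. On KI270304.1 it ended at 2128 in each KO clone, against 2105 in each WT clone. On KI270422.1 it ended at 1383, 1413, 1413 and 1376 in C12, C15, S04 and S36, against 1346 in each WT clone. The ends were thus alike within WT clones to the base on all 3 sequences, and the KO peak reached further by 22 to 67 bp.

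The fold enrichment of the peak on KI270333.1 was 21.7, 18.3, 23.04 and 32.2 in C12, C15, S04 and S36, against 38.6, 34.2, 38.4 and 39.7 in WT10, WT13, WT28 and WT30. On KI270304.1 it was 35.1, 36.4, 33.6 and 27.9 in the KO clones, against 38.4, 37.6, 40.3 and 37.1 in the WT clones. Every KO value lay below every WT value on both, as a description across lists. The reverse was seen on KI270337.1, where the peak ran from base 1 to base 1121 in all 8 libraries, with folds of 19.8, 16.5, 16.7 and 19.1 in the KO clones, against 6.29, 6.18, 6.62 and 6.98 in the WT clones. On KI270303.1 the highest fold was 14.5, 10.8, 11.7 and 13.2 in the KO clones, against 8.16, 7.53, 10.04 and 8.40 in the WT clones, again with no overlap. These 2 sequences were chosen after their values were seen. On KI270422.1 the values overlapped, at 35.2, 15.8, 17.5 and 15.03 in the KO clones against 21.3, 20.6, 23.6 and 21.8 in the WT clones.

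Region by region, 90 of 353 (25.5%) were called in 1 genotype alone, 58 of them in a single library. A peak in KO and no WT clone was met by 25 (7.08%), beside 22% of all 1999 regions. A peak in WT and no KO clone was met by 65 (18.4%), beside 28.1% of all. A peak in 3 or 4 KO and no WT clone was met by 5 of 353 regions (1.42%), beside 1.9% of all 1999 regions. A peak in 3 or 4 WT and no KO clone was met by 7 (1.98%), beside 3.65% of all. Both shares were below those of all regions, and no region passed a two-sided Fisher's exact test with Benjamini-Hochberg adjustment over the 1999 regions (0 of 353, and 0% of all; 6 of the 353 had an unadjusted p of 0.0286, the smallest that 4 against 4 can give, and an adjusted p of 1). Because that smallest p passes the adjustment only if most of the 1999 regions share it, no conclusion is drawn from this test. The counts of regions called in 3 or 4 clones of 1 genotype moved with the settings. There were 3 KO-specific regions and 13 WT-specific ones where a library had to cover 50% of a region, and 1 and 3 where peaks within 500 bp were merged as well.

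The KO-specific regions had modest enrichment. Beside that on KI270418.1, a region at bases 1370 to 1654 of KI270383.1 was called in all 4 KO clones with folds of 8.58, 7.74, 8.40 and 7.90, at 839 bp from the nearest WT peak. The other 3 were called in C12, C15 and S04 and not in S36. They lay at bases 3138 to 3514 of GL000008.2 (folds 6.91, 4.44 and 6.44, with no WT peak on the sequence), at 106527 to 106937 of GL000225.1 (6.11 to 6.57) and at 17080 to 17612 of KI270709.1 (2.57 to 2.64).

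Of the WT-specific regions, 4 were called in all 4 WT clones, the one on KI270336.1 among them. Neighbouring regions of GL000225.1 at bases 17086 to 17593 and 17854 to 18476 had folds of 6.71, 4.84, 8.41 and 6.67 and of 5.70, 4.52, 6.95 and 6.005 in WT10, WT13, WT28 and WT30, with the nearest KO peak at 1580 and 884 bp. The region at bases 39640 to 40029 of KI270735.1 had folds of 9.73, 6.53, 8.77 and 5.34, at 805 bp from the nearest KO peak. The other 3 were called in WT10, WT13 and WT28 and not in WT30, at bases 49226 to 49548 and 87926 to 88443 of GL000225.1 and 164663 to 165036 of KI270706.1. The first of these lay only 29 bp from a KO peak, and the others 1149 and 820 bp from one.

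The authors also deposited a combined list of 209 regions and a list of 561 regions described as present in WT only. None of the 209 combined regions lay on these sequences (0% of that list). Of the WT-only list, 65 of 561 (11.6%) lay here, 34 of them on GL000225.1 and 7 on GL000216.2, beside 353 of all 1999 merged regions (17.7%). That list was identical, 561 of 561, to the merged WT peaks that no KO peak overlapped. The mirror list made in the same way, KO peaks that no WT peak overlapped, had 25 of 440 regions (5.68%) here, 4 on GL000225.1 and 1 on GL000216.2. Both shares were below 17.7%. Of the 65 WT-only regions, 44 were called in 1 WT library alone, and of the 25 in the mirror list, 14 in 1 KO library alone.

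H3K27ac peaks were scarce on these sequences and lay elsewhere than the NKX2-1 antibody peaks. The H3K27ac library had 11 of its 9868 peaks here (0.111%, 95% Wilson interval 0.0623 to 0.1995%, counting error only), on 7 sequences and over 4980 bp. The strongest, at bases 21818 to 22472 of KI270713.1, had a fold of 18.4 and a -log10 q of 35.6. The other 10 had folds of 5.01 to 8.23, on GL000195.1, GL000205.2, KI270721.1, KI270726.1, KI270728.1 and KI270744.1. KI270744.1 was the one sequence with peaks of both antibodies, 48434 bp apart. None of the 353 regions overlapped an H3K27ac peak, beside 107 of 1643 (6.51%) on chromosomes 1 to 22, X and Y. A bound of 3 counts would allow a share of up to 0.850%. It takes the regions as independent, which those on 1 sequence are not.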

How the data were processed

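Peak lists of 8 NKX2-1 antibody libraries (4 KO, 4 WT) and 1 H3K27ac library were used. Per the submitters' processing notes, FastQC, Bowtie2, SAMtools, MACS2 and deepTools were used on build hg38; versions, parameters and the control for peak calling are not given in the sources used here. For each peak of each library the authors deposited coordinates, a score, a ratio (column 7, fold enrichment), and the −log10 of a p-value and of a q-value; the score and −log10 p were not used. The lowest deposited −log10 q was 2.01 to 2.18 per library.

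Coordinates are 1-based here. Peaks of the libraries that overlapped by 1 bp or touched were merged per sequence. MT peaks (41) were left out. Values per library were compared by exact two-sided permutation of the 8 libraries, ratios within a library by exact sign flips, and regions by Fisher's exact test, with Benjamini-Hochberg adjustment over 7 tests, 76 sequences or 1999 regions. Named were the 4 sequences given as examples, the 8 with the most covered bases, those whose groups do not overlap, every region called in 3 or 4 libraries of 1 genotype alone, and the 3 regions of each example sequence called in most libraries, ties by fold enrichment. Members and rules were chosen with earlier results of these data known. The scripts (Python 3.11.15, SciPy 1.17.1) were tested on simulated data. Alternatives were a −log10 q of 10 or more, merging within 500 bp, 50% of a region covered, means, leaving out each library or GL000225.1, and, chosen after the data were seen, lists of 1000 peaks and leaving out S36 with WT13. No sequence is printed, since no genome was used here.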

Additional observations from a re-analysis of the deposited data

Results flagged for a closer look

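In 5 of the 46 groups of 4 clones examined, 1 clone lay far from the other 3 of its genotype by Dixon's test. Groups of 4 equal values, KO clones on KI270336.1 and WT clones on KI270333.1, are among the 46 and could not be flagged. The test flags about 1 of 20 groups by chance alone where values are independent and not tied. Here some values were tied and some measures overlapped, so that rate is no yardstick for the 5. WT10 had a median peak width of 412 bp on the other sequences, where WT13, WT28 and WT30 had 380, 381 and 380 bp, and its log2 ratio of this width to that on the chromosomes was 0.29, also the highest of the WT clones. WT10 had 2097 covered bp on KI270304.1, where the other WT clones had 2105, because its peak began at base 9 and not at base 1. S36 had 2670 covered bp on KI270333.1, where the other KO clones had 2694. C12 had 0 covered bp on KI270724.1, where the other KO clones had 219 to 237. The differences on KI270304.1 and KI270333.1 are 8 and 24 bp.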

How the results depend on the processing

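No difference per library, region or sequence passed an adjusted p of 0.05 with all 8 libraries under the settings tried. For regions and sequences, the smallest p that the 8 libraries can give passes adjustment only if most regions or sequences share it. With a library left out the smallest exact permutation p between genotypes is 0.0571 (0.1 without S36 and WT13), so none of those tests could pass at all. Of the summary values recomputed under the alternatives, 138 kept direction and side of the threshold or a count within 1.5 times, 18 counts moved and 5 differences turned round. The difference in peaks per library, -28.8, was -8.25 without GL000225.1, that in share, -1.46 points, was -0.25, and that in covered length, -19.3 kb, was -9.35 kb and, without S36, -2.82 kb. With a −log10 q of 10 or more, 78 regions were called in all 8 libraries and 3 were KO-specific. With 50% of a region covered these were 81 and 3, with 13 WT-specific, and with merging within 500 bp 1 KO-specific and 3 WT-specific were left. Shares of all merged regions were not computed under these alternatives. The within-library fold enrichment ratio turned to -0.056 (log2) without GL000225.1.

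Leaving out 1 library at a time, the KO-minus-WT difference in median width ran from -16.6 to 6.25 bp (above 0 without S36 or WT10), KO-specific regions from 2 to 8, WT-specific regions from 4 to 13, and sequences whose groups do not overlap from 10 to 14 (14 without S36). The difference in covered bp ran from -4666 to 3194 on GL000220.1 (above 0 without S36 or WT10), from -4120 to 5806 on KI270733.1 (likewise) and from -674 to 264 on KI270709.1 (above 0 without S36 or WT30). With lists of 1000 peaks it was 113.5 bp on KI270709.1 and 256 bp on KI270733.1. Without S36 and WT13 the difference in share was 0.639 points and in median width 3.50 bp, 4 regions were WT-specific, 16 sequences did not overlap, and the difference was 3722 bp on GL000220.1 and 6373 bp on KI270733.1. The causes were not tested. On GL000225.1 and GL000216.2 the difference stayed below 0 in the 11 alternatives run, at -11463 to -6679 bp and -3660 to -2910 bp.

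No paired analysis was possible because the labels give the clones no shared numbers. Peak lists hold no read counts, so unequal depth between libraries was not measured here. With 4 clones a group the smallest exact permutation p is 0.0286 for any 1 sequence, before adjustment over 76 sequences.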
